A study of Mus musculus with 16 samples.

Results

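Notch receptors, Notch targets and Myc are described here by 8 genes, Notch1, Notch3, Nrarp, Dtx1, Hes1, Ptcra, Il2ra and Myc, out of 24974 genes that were counted in both double positive (DP) and CD8 thymocytes of the mouse. All 8 were found by their gene symbol in both count tables. They were chosen with their measured values in the comparisons given here already known, so their levels and fold changes are a description, given with standard errors. How many of them met the call rule is counted beside the share of all genes, and nothing is read from that count. For groups whose samples do not overlap, the share of all genes that also do not overlap was not counted. A lack of overlap is therefore a description only. Tests are read only for Tox4, for 102 other genes of the same pathways and for markers of cell types. The lists of these genes were also drawn up with earlier results of these data known, which limits what their counts and calls can show.

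Tox4 is an HMG box protein found in a complex with PP1 phosphatase, and the study removed it from T cells to ask what it does in thymocyte development. RNA-seq of polyA RNA was made from 3 control and 3 conditional knockout (cKO) samples of DP cells and from 5 control and 5 cKO samples of CD8 cells. Control mice were Tox4;F/F, with floxed Tox4 alleles and no Cre, although the sample titles call them WT. The cKO mice were Tox4;F/F;Lck-cre, with the same floxed alleles and a Cre under the proximal Lck promoter that acts from the DN3 stage and removes exons 4 to 6. Both genotypes therefore share the floxed allele, and only the cKO mice carry the transgene. The floxed mice came from C57BL/6 eggs, and littermates of the same sex were compared at an age of 6 to 8 weeks. DP and CD8 cells for RNA-seq were sorted by flow cytometry, the CD8 cells by TCRβ and CD8 on their surface. The labels number the samples but do not say that each came from a separate animal, so p-values measure the spread between these samples.

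Fragments counted on genes numbered 16524506 to 18484568 in the DP control samples and 14583336 to 25981683 in the DP cKO samples. In CD8 cells they numbered 9420085 to 13530783 in control and 8514135 to 11828492 in cKO samples. Levels are given as TPM, which divide the fragments of a gene by its exonic length and by the total of the sample, and can be compared between genes.

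Notch proteins are receptors that are cut when a ligand on a neighbouring cell binds them, after which the intracellular part enters the nucleus and activates genes together with the DNA-binding protein Rbpj and coactivators of the Mastermind family. In the thymus, Notch1 signalling commits precursors to the T cell lineage and supports DN3 cells through beta-selection, the step at which a working T cell receptor beta chain is tested in the pre-TCR. Signalling falls as cells become DP, and Hes1, Dtx1, Nrarp, Ptcra, Il2ra and Myc are known targets of Notch in early thymocytes.

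The targeted gene was examined in every sample. Tox4 (mm10 chromosome 14, 52279146 to 52295509) was at 104, 107 and 113 TPM in DP control samples 1 to 3 and at 86.5, 89.0 and 77.8 TPM in DP cKO samples 1 to 3. All cKO samples were below all control samples. The difference was -0.32 on the log2 scale with a standard error of 0.11, and its adjusted p of 0.381 in the edgeR quasi-likelihood test missed the threshold of 0.05. In CD8 cells Tox4 was at 139, 141, 148, 142 and 129 TPM in control samples 1 to 5 and at 122, 137, 131, 162 and 133 TPM in cKO samples 1 to 5. The groups overlapped, and the test gave -0.06 on the log2 scale, with a standard error of 0.10 and an adjusted p of 0.979. Only cKO replicate 1 was below all control samples. Replicates 2, 3 and 5 lay within the control range, so whole-gene Tox4 does not set them apart from control. The level in the library labelled cKO replicate 4 was above all control samples, so whole-gene Tox4 gives no support to its label. The gamma-delta T genes Cd163l1 and Sox13 were at 5.89 and 7.59 TPM in that library, against at most 2.87 and 6.30 TPM in CD8 control samples. Blk, from the same list, was at 1.15 TPM, within the control range of 0.277 to 2.40 TPM. Maf, also listed, was at 3.14 TPM, below the control range of 3.68 to 5.17 TPM. These genes were named after their values were seen in groups that include this library. Nothing is therefore read from them about its label. Fold changes of single genes in CD8 cells are given with and without this library. Without it Tox4 was at -0.15 (standard error 0.07, adjusted p = 0.895). The study reports by Western blot that deletion was efficient in cKO thymocytes. These counts cover the whole gene, including exons outside the floxed part, so they measure the loss of the floxed exons only in part.

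Some CD8 libraries stood apart in ways that bear on the genes described. In CD8 control replicate 1, 17741 genes had at least 1 fragment, against 13708 to 15054 in the other CD8 samples. Its 10 genes of proliferating cells summed to 239.9 TPM, against 369 to 578 TPM in the other CD8 samples, and its 6 B cell genes summed to 66.4 TPM, against 20.5 to 52.6 TPM. A further division ran by replicate number. Cd4, the coreceptor that CD8 cells have lost, was at 62.1 and 70.9 TPM in CD8 control samples 1 and 2 and at 69.7 and 81.6 TPM in CD8 cKO samples 1 and 2. In CD8 samples 3 to 5 of both genotypes it was at 3.64 to 10.7 TPM. Rag1, the recombinase gene of DP cells, followed the same division, with 43.4 and 60.1 TPM in control samples 1 and 2, 37.2 and 48.1 TPM in cKO samples 1 and 2, and 5.57 to 15.8 TPM in the rest. Klf2, a gene of mature thymocytes, went the other way, at 430 to 585 TPM in samples 1 and 2 of both genotypes and 898 to 1599 TPM in samples 3 to 5. In DP control samples Cd4 was at 1454 to 1834 TPM and Rag1 at 3083 to 4269 TPM, far above every CD8 sample.

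The defining markers of both cell types were present. Cd8a was at 1782 to 2341 TPM in DP control samples and at 1451 to 1691 TPM in CD8 control samples. Of the 7 listed genes of mature single positive cells, all 7 were called higher in control CD8 than in control DP cells, and of the 6 listed DP genes 5 were called lower, in the edgeR test described with the pathway lists. Of the 10 genes of early DN cells, 6 were tested between the cell types, 4 with log2 fold changes above 0 and 2 below, and 1 was called higher in CD8. Their sums were 4.54 to 13.2 TPM in DP and 24.8 to 67.9 TPM in CD8 samples. Kit alone was at 0.668 to 3.28 TPM in DP and 22.3 to 64.9 TPM in CD8 samples. Of the 10 genes of proliferating cells 9 were called lower in CD8, with a median of -1.73, and their sums were 681 to 1159 TPM in DP control and 239.9 to 501 TPM in CD8 control samples. Of 4 gamma-delta T genes tested 3 were called higher, with sums of 4.88 to 5.86 TPM in DP control and 8.27 to 14.0 TPM in CD8 control samples. Of 5 myeloid genes 3 were called lower and 1 higher, with sums of 46.7 to 91.8 TPM in DP control and 31.3 to 48.7 TPM in CD8 control samples. The part of these cells in the differences between the cell types was not tested.

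**Figure D1:**
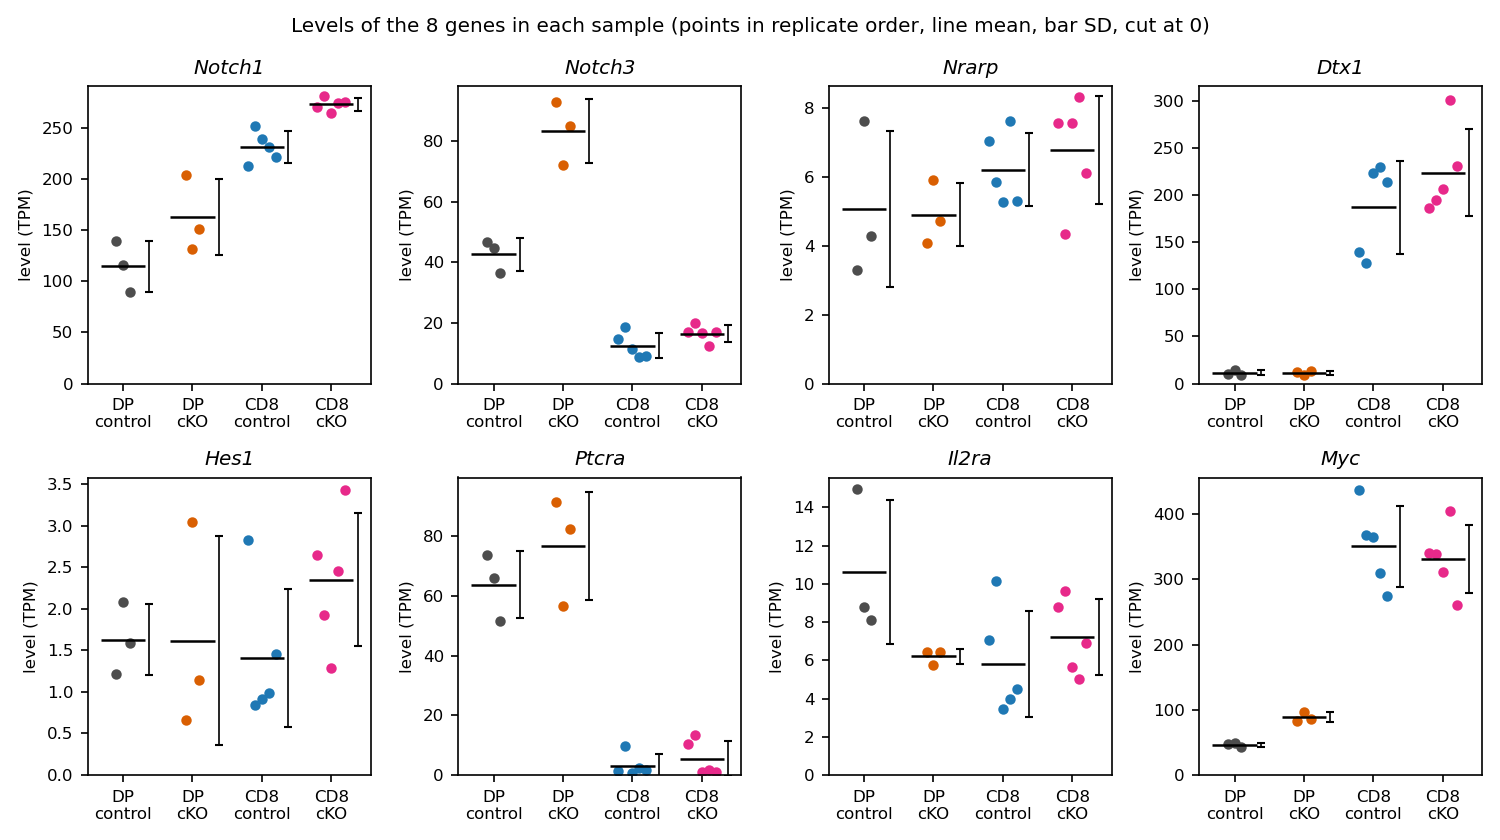
Level of each of the 8 genes in TPM on a linear axis, for DP control, DP cKO, CD8 control and CD8 cKO samples. Each point is a sample, placed from left to right by replicate number, the line is the mean and the bar is the SD, cut at 0. Notch3 and Myc of all DP cKO samples lie above all DP control samples, and Il2ra of all DP cKO samples lies below them.

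The order of the levels differed between the cell types. In DP control cells Notch1 had the highest level (115 ± 24.9 TPM, SD, n = 3), above Ptcra (63.7 ± 11.2 TPM), Myc (46.5 ± 3.06 TPM), Notch3 (42.7 ± 5.42 TPM), Dtx1 (11.3 ± 2.54 TPM), Il2ra (10.6 ± 3.78 TPM), Nrarp (5.07 ± 2.27 TPM) and Hes1 (1.63 ± 0.432 TPM). Samples of Myc and Notch3 overlapped in that order, as did those of Dtx1 and Il2ra, and the other neighbours did not. In CD8 control cells Myc led (351 ± 62.0 TPM, SD, n = 5), followed by Notch1 (232 ± 15.2 TPM) and Dtx1 (187 ± 49.2 TPM), and the samples of the latter pair overlapped. Notch3 (12.5 ± 4.11 TPM) came next and stood clear of its neighbours. Nrarp (6.21 ± 1.06 TPM), Il2ra (5.82 ± 2.78 TPM), Ptcra (3.11 ± 3.80 TPM) and Hes1 (1.41 ± 0.831 TPM) each overlapped with the next. In DP cKO cells Notch1 (163 ± 37.2 TPM, SD, n = 3) again came first, ahead of Myc (88.9 ± 7.30 TPM), Notch3 (83.4 ± 10.6 TPM) and Ptcra (76.8 ± 18.1 TPM), which overlapped each with the next, and Dtx1 (11.5 ± 2.25 TPM), Il2ra (6.22 ± 0.387 TPM), Nrarp (4.90 ± 0.916 TPM) and Hes1 (1.62 ± 1.26 TPM) followed. Of these last 4, only Il2ra and Nrarp overlapped. In CD8 cKO cells the order was Myc (331 ± 52.3 TPM, SD, n = 5), Notch1 (273 ± 6.31 TPM), Dtx1 (224 ± 46.3 TPM), Notch3 (16.5 ± 2.71 TPM), Il2ra (7.20 ± 1.98 TPM), Nrarp (6.78 ± 1.58 TPM), Ptcra (5.52 ± 5.94 TPM) and Hes1 (2.35 ± 0.802 TPM). There only Notch3 was clear of both neighbours.

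Notch1 and Notch3 are the receptors. Notch1 (chromosome 2, 26457902 to 26503822, minus strand) is the receptor that drives early T cell development. It was at 139, 116 and 89.5 TPM in DP control samples 1 to 3 and at 204, 132 and 152 TPM in DP cKO samples 1 to 3. Within each number the cKO sample was the higher, but cKO replicate 2 was below control replicate 1, so the groups overlapped. The mean difference on the log2 scale was 0.54 (standard error 0.18). In CD8 cells Notch1 was at 213, 252, 239, 232 and 222 TPM in control samples 1 to 5 and at 271, 282, 265, 274 and 276 TPM in cKO samples 1 to 5. All CD8 cKO samples, including the library labelled cKO replicate 4, lay above all control samples. The difference was small, at 0.21 on the log2 scale (standard error 0.08), 0.18 without the library labelled cKO replicate 4 and 0.19 without control replicate 1.

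Notch3 (chromosome 17, 32120820 to 32166890, minus strand) is another receptor, which in thymocytes is highest around the pre-TCR stage. It was at 46.8, 44.7 and 36.5 TPM in DP control samples 1 to 3 and at 93.0, 72.1 and 85.2 TPM in DP cKO samples 1 to 3. Every DP cKO sample was above every control sample, and the log2 fold change of 1.01 (standard error 0.14) was the largest of the 8 genes in DP cells. In CD8 cells Notch3 was at 14.8, 18.5, 11.3, 8.90 and 9.01 TPM in control samples 1 to 5. In CD8 cKO samples 1 to 5 it was at 16.9, 19.9, 16.6, 12.3 and 16.9 TPM. Samples 1 and 2 were the highest of the control group, and the groups overlapped as a whole. Within each number the cKO sample was the higher, although the numbers were not taken as pairs in CD8 cells. Among samples 3 to 5 all cKO values lay above all control values. That split was made after seeing the data, and nothing is read from it. Over all samples the difference was 0.37 on the log2 scale (standard error 0.19). It was 0.44 without the library labelled cKO replicate 4, 0.45 without control replicate 1 and 0.59 without the CD8 samples numbered 1 and 2.

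Nrarp and Dtx1 act in the pathway as well as being targets of it. Nrarp (chromosome 2, 25180758 to 25183332, plus strand) is a feedback inhibitor that binds the Notch nuclear complex. Its level was low in all groups, 3.30 to 7.63 TPM in DP control, 4.09 to 5.89 TPM in DP cKO, 5.26 to 7.60 TPM in CD8 control and 4.35 to 8.32 TPM in CD8 cKO samples. The difference on the log2 scale was -0.03 (standard error 0.35) in DP and 0.10 (standard error 0.23) in CD8 cells, both smaller than their standard errors. Leaving out a DP sample gave -0.29 (without control replicate 1) to 0.42 (without control replicate 2). In CD8 cells it was -0.01 without the library labelled cKO replicate 4 and 0.15 without control replicate 1.

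Dtx1 (chromosome 5, 120680264 to 120711669, minus strand) encodes Deltex1, an E3 ubiquitin ligase that acts on Notch signalling. It was at 10.3, 14.2 and 9.44 TPM in DP control and 12.6, 8.95 and 13.1 TPM in DP cKO samples 1 to 3, and the groups overlapped (log2 fold change 0.06, standard error 0.23). Leaving out a DP sample gave -0.08 (without cKO replicate 3) to 0.29 (without control replicate 2). In CD8 cells it was at 139, 128, 224, 229.7 and 214 TPM in control samples 1 to 5 and at 186, 194, 207, 301 and 230.5 TPM in cKO samples 1 to 5. The highest value was that of the library labelled cKO replicate 4, and the lowest values in both genotypes were those of samples 1 and 2. The groups overlapped, at 0.23 on the log2 scale (standard error 0.19), and the value was 0.07 without the library labelled cKO replicate 4, 0.15 without control replicate 1 and 0.11 without control replicate 2.

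Hes1, Ptcra, Il2ra and Myc are targets of the pathway. Hes1 (chromosome 16, 30065357 to 30067796), a transcriptional repressor, rested on 7 to 23 fragments in each DP library and 4 to 14 in each CD8 library. Its levels were 1.22 to 2.08 TPM in DP control, 0.660 to 3.05 TPM in DP cKO, 0.847 to 2.83 TPM in CD8 control and 1.29 to 3.43 TPM in CD8 cKO samples. In DP cells the log2 fold change was -0.05 with a standard error of 0.60, and it ran from -0.78 (without cKO replicate 2) to 0.34 (without cKO replicate 1). In CD8 cells Hes1 did not pass the filter.

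Ptcra (chromosome 17, 46755663 to 46763712, minus strand) encodes pre-T alpha, the partner of the beta chain in the pre-TCR. It was at 73.6, 65.9 and 51.6 TPM in DP control and 91.4, 56.6 and 82.4 TPM in DP cKO samples 1 to 3. The groups overlapped, and the log2 fold change was 0.32 (standard error 0.20), which was 0.19 without control replicate 3 and 0.49 without cKO replicate 2. In CD8 cells Ptcra was at 1.33, 9.82, 0.515, 2.24 and 1.65 TPM in control samples 1 to 5 and at 10.3, 13.5, 1.16, 1.67 and 0.969 TPM in cKO samples 1 to 5. Only 3 of the 10 CD8 samples, control 2, cKO 1 and cKO 2, held more than 10 fragments of it, with 41, 48 and 62. These samples were also among the 4 with high Cd4 and Rag1, and the remaining sample of the 4, control replicate 1, was not high in Ptcra. In bulk samples, more cells with Ptcra and more Ptcra mRNA per cell cannot be told apart. The part of DP marker genes in these values was not tested.

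Notch3 and Ptcra were the members whose levels were much lower in CD8 than in DP control cells, and the sequence before their start sites is shown for this reason. RefSeq promoters (build GRCm38.p6, the same assembly as mm10) were matched for 6 of the 8 genes, Notch1, Notch3, Nrarp, Dtx1, Ptcra and Il2ra. The 250 bases before each start site were searched on both strands for TGGGAA, the core of the sequence that Rbpj binds, and for CAGCTG, an E box bound by E proteins. No match of either motif overlapped a match of the other. Capitals mark the matches, and the sequences are written 5′ to 3′ along the gene's strand.
Notch3, chr17:32166891-32167140, minus strand: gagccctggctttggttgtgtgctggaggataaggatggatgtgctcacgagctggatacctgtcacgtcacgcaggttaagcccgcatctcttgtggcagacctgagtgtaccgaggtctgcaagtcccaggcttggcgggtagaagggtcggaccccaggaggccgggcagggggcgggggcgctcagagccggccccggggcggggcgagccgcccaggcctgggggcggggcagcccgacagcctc
Ptcra, chr17:46763713-46763962, minus strand: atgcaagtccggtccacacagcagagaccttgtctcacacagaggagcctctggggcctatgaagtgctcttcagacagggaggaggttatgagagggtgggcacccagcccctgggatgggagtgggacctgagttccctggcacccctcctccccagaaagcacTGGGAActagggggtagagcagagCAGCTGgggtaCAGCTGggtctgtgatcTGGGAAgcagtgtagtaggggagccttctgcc
In the Ptcra promoter TGGGAA began 84 and 32 bases before the start site, and CAGCTG began 60 and 49 bases before it. Neither motif was found in the same window of the other 5 genes. Of all 32851 promoters of this length, 21.6% held TGGGAA and 13.0% held CAGCTG. A match is a description of letters and not a binding site.

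Il2ra (chromosome 2, 11642792 to 11693194) encodes CD25, the alpha chain of the interleukin-2 receptor and a surface marker of DN2 and DN3 cells. It was at 15.0, 8.77 and 8.11 TPM in DP control and 6.46, 5.77 and 6.42 TPM in DP cKO samples 1 to 3. All DP cKO samples were below all control samples, and control replicate 1 was the highest by far. The log2 fold change of -0.71 (standard error 0.23) was -0.44 without that sample. In CD8 cells Il2ra was at 7.04, 10.1, 3.43, 3.97 and 4.51 TPM in control samples 1 to 5 and at 8.80, 9.62, 5.65, 5.001 and 6.93 TPM in cKO samples 1 to 5. Samples 1 and 2 were the highest of each genotype, and the groups overlapped (log2 fold change 0.29, standard error 0.28). Among samples 3 to 5, a split made after seeing the data, all cKO values lay above all control values. Nothing is read from that split. Leaving out a single sample gave 0.15 (without control replicate 3) to 0.57 (without control replicate 2). The value was 0.38 without the library labelled cKO replicate 4, 0.38 without control replicate 1 and 0.49 without the samples numbered 1 and 2.

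Myc (chromosome 15, 61985341 to 61990361) encodes a transcription factor that drives growth and ribosome production. It was at 47.3, 49.2 and 43.2 TPM in DP control and 83.2, 97.1 and 86.5 TPM in DP cKO samples 1 to 3. Every DP cKO sample was above every control sample by a wide margin, at 0.97 on the log2 scale (standard error 0.13), close to the value of Notch3. In CD8 cells Myc was at 436, 368, 365, 310.1 and 274 TPM in control samples 1 to 5 and at 340, 338, 311, 405 and 261 TPM in cKO samples 1 to 5. The groups overlapped and the log2 fold change was -0.10 (standard error 0.15), which was -0.22 without the library labelled cKO replicate 4, -0.00 without control replicate 1 and 0.01 without the samples numbered 1 and 2.

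**Figure D2:**
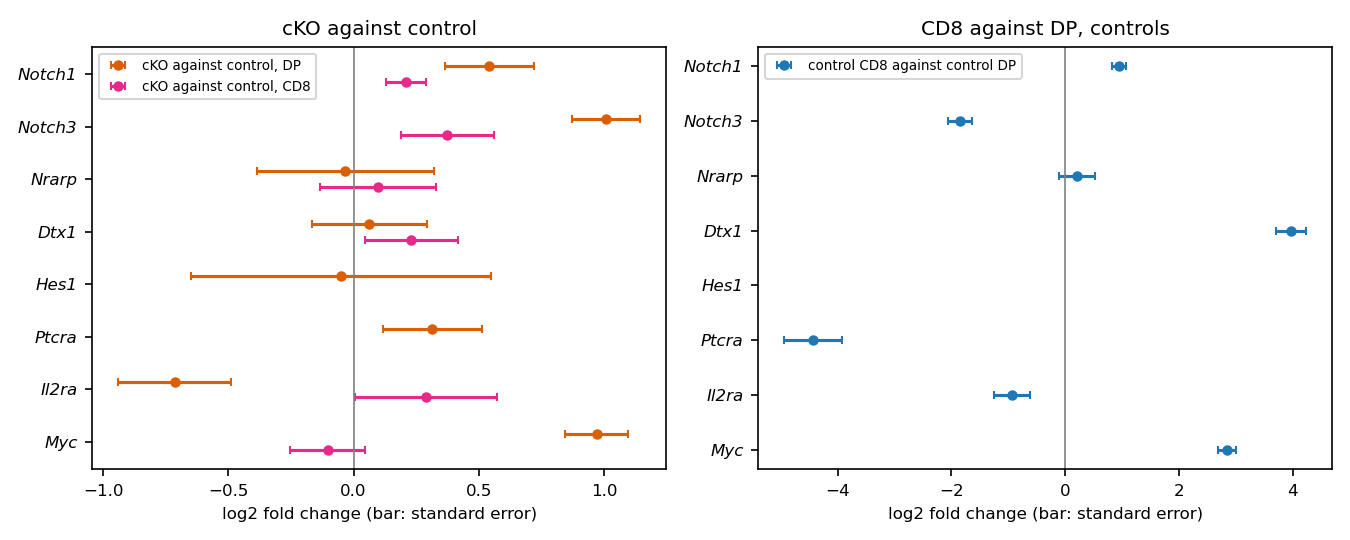
Log2 fold change of each gene with its standard error, cKO against control on the left and control CD8 against control DP on the right, on axes of different scale. In DP cells Notch3 (1.01) and Myc (0.97) lie farthest to the right and Il2ra (-0.71) farthest to the left, and genes without a point did not pass the filter on low counts.

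All 8 genes passed the filter on low counts in DP cells. A call needed 3 things: adjusted p below 0.05, at least a 1.5-fold difference, and 1 TPM or more on average over the samples compared. Of the 8, 2 genes, Notch3 and Myc, met this rule in DP cells with edgeR, as they did with the replicate number as a block and with DESeq2. Among the 11187 genes that reached 1 TPM, 0.152% were called with edgeR, 1.17% with the block and 1.43% with DESeq2. Since the 8 genes were chosen on these values, nothing is read from the count. Leaving out any of the 6 samples gave log2 fold changes of 0.92 to 1.10 for Notch3 and 0.91 to 1.05 for Myc, but Notch3 met the rule in 0 and Myc in 1 of these 6 fits. In CD8 cells 6 of the 8 passed the filter, without Hes1 and Ptcra, and 0 of them were called, beside 0.0994% of 11069 genes. Whether the effect on a member differs between CD8 and DP cells was not tested.

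Markers of other cells had the following values in DP cells. Of the 10 genes of proliferating cells, all 10 had log2 fold changes above 0, with a median of 0.37, and edgeR called 0. Their summed level was 1077, 1159 and 681 TPM in DP control samples 1 to 3 and 1708, 1026 and 1085 TPM in cKO samples 1 to 3, and the most abundant on average over all samples was Top2a. Of the 7 genes of mature single positive cells, 6 had log2 fold changes below 0, with a median of -0.995, and edgeR called 0. Their summed level was 228, 178 and 168 TPM in control and 128, 122 and 112 TPM in cKO samples 1 to 3, with every cKO sample below every control sample. Cd69 made up the largest share, at 45.6 to 107 TPM, while the defining marker Klf2 was at 6.10 to 15.2 TPM in the DP samples. All 4 tested B cell genes had log2 fold changes below 0, with a median of -1.08, as did 4 of 6 myeloid genes, with a median of -0.89. In both lists edgeR called 0. B cell sums were 54.9, 61.9 and 42.1 TPM in control and 40.2, 44.9 and 43.4 TPM in cKO samples 1 to 3. Myeloid sums were 51.5, 91.8 and 46.7 TPM in control and 48.4, 44.3 and 50.7 TPM in cKO samples 1 to 3. For both lists the sums of the groups overlapped. The early DN genes, of which 4 of 10 were tested, summed to 10.97, 13.2 and 4.88 TPM in control and 4.54, 6.82 and 6.10 TPM in cKO samples. The part of these cells in the values of Notch3, Il2ra and Myc was not tested.

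The CD8 cells were sorted as positive for TCRβ, the chain of alpha-beta T cells. Of the 5 gamma-delta T genes 4 were in the table and tested in them. All 4 had log2 fold changes above 0, with a median of 0.98, and edgeR called 1 higher, Cd163l1 (1.81, adjusted p = 0.00984, and 1.89, adjusted p = 0.0177, without the library labelled cKO replicate 4). Sox13 was at 1.29 (standard error 0.32), Blk at 0.67 (standard error 0.55) and Maf at 0.09 (standard error 0.20). Without that library the values were 1.32 for Sox13, 0.82 for Blk and 0.18 for Maf. The 4 genes summed to 14.0, 12.4, 13.3, 8.27 and 10.1 TPM in CD8 control samples 1 to 5 and to 34.7, 20.5, 20.1, 17.8 and 27.1 TPM in cKO samples 1 to 5, so the groups did not overlap. The most abundant on average over all samples was Sox13, at 1.79 to 6.30 TPM in CD8 control and 7.06 to 13.4 TPM in CD8 cKO samples. Of the 10 genes of proliferating cells 9 had log2 fold changes above 0, with a median of 0.21, and edgeR called 0. Without that library 7 of the 10 were above 0. Their sums ran from 239.9 to 501 TPM in control and from 369 to 578 TPM in cKO samples. Of the 10 early DN genes 2 were tested, 1 above 0 and 1 below. Over all 10, sums were 44.7, 36.1, 30.4, 24.8 and 32.3 TPM in CD8 control samples 1 to 5. In cKO samples 1 to 5 they were 47.1, 40.8, 56.6, 39.7 and 67.9 TPM. Among samples 3 to 5, a split made after seeing the data, all cKO sums lay above all control sums, and nothing is read from that. Kit made up the largest share. Of 3 tested myeloid genes 2 were above 0, with a median of 0.52. Myeloid sums were 31.3 to 48.7 TPM in control and 32.5 to 82.2 TPM in cKO samples. The part of these cells in the CD8 values of the 8 genes was not tested.

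**Figure D3:**
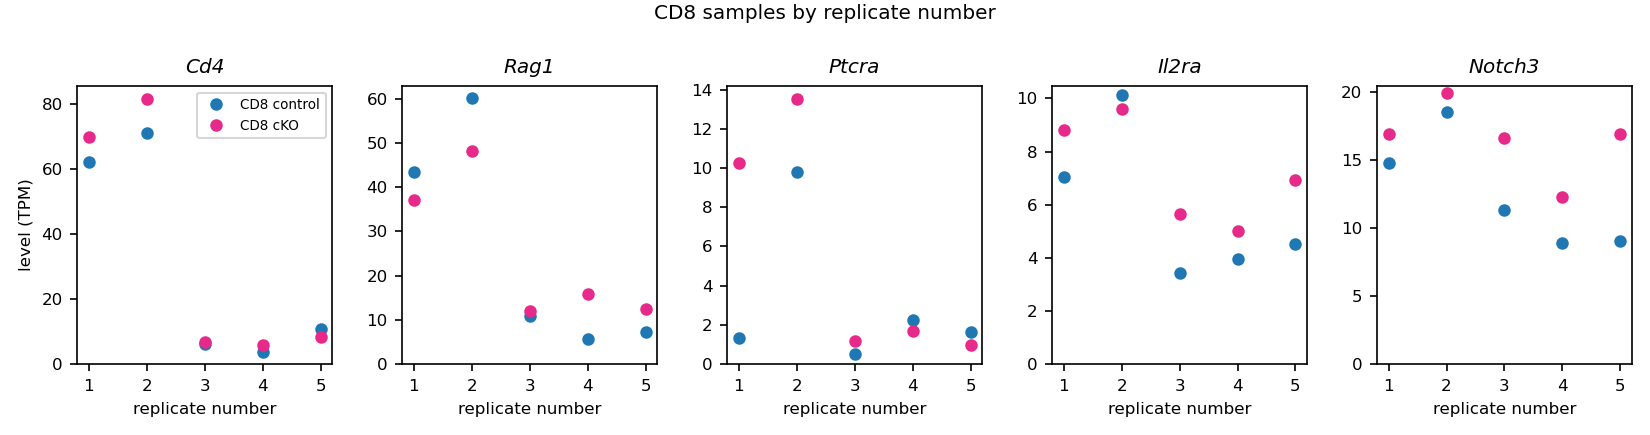
Level in TPM of Cd4, Rag1, Ptcra, Il2ra and Notch3 in the CD8 samples, by replicate number, with control samples in blue and cKO samples in pink. Cd4 is at 62.1 to 81.6 TPM in samples 1 and 2 of both genotypes and at most 10.7 TPM in samples 3 to 5, and Ptcra is above 9 TPM in 3 samples numbered 1 or 2.

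The last comparison set control CD8 against control DP cells. The paper describes the RNA-seq of DP and of CD8 cells separately, and their counts were deposited apart. The labels do not say whether the libraries were prepared together, so cell type and batch cannot be told apart. Dtx1 was higher in all CD8 than in all DP control samples, at 128 to 229.7 against 9.44 to 14.2 TPM, at 3.97 on the log2 scale (standard error 0.27). Myc followed at 2.84 (standard error 0.16) and Notch1 at 0.94 (standard error 0.12), and neither overlapped between the cell types. Ptcra was lower in all CD8 samples (-4.43, standard error 0.51), as was Notch3 (-1.85, standard error 0.21). Il2ra was lower on average (-0.94, standard error 0.32), with overlapping samples. For Nrarp the difference of 0.20 was smaller than its standard error of 0.31 and ran from -0.05 (without DP control replicate 1) to 0.65 (without DP control replicate 2), and Hes1 did not pass the filter.

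Of the 7 genes that passed the filter, 3 met the call rule as higher and 3 as lower in CD8 cells, beside 22.8% and 23.1% of 11364 genes, and nothing is read from these counts. Ptcra passed the filter through its DP samples, rested on 2 to 41 fragments in CD8 control samples, and was not tested where at least 10 fragments were asked of every sample. Without the CD8 samples numbered 1 and 2, the log2 fold change was -5.43 for Ptcra, -2.19 for Notch3 and -1.46 for Il2ra. Without control replicate 1 alone it was -4.25, -1.92 and -1.01. Il2ra was at -0.66 without DP control replicate 1, and at -0.78, -0.82 and -0.85 without CD8 control replicates 3, 4 and 5, and it did not meet the rule in these 4 of the 8 fits that leave out a sample. Without CD8 control replicate 2, Ptcra was at -5.46. The summed level of Cd4, Rag1, Rag2 and Dntt was 186, 286, 64.5, 43.5 and 61.9 TPM in CD8 control samples 1 to 5, and its part in these values was not tested.

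The other genes of the pathways were taken from 9 lists with 102 genes, and these were tested with edgeR over the whole table. In DP cells 94 of the 102 were tested and 0 were called, while 11 (11.7%) had an unadjusted p under 0.05, beside 9.18% of all genes tested. With the replicate number as a block 3 were called, and with DESeq2 3, beside the 1.17% and 1.43% given above. The median log2 fold change of the listed genes was 0.03, against -0.00 for all genes tested.

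Jag2, a Notch ligand, was at 9.88, 9.47 and 9.95 TPM in DP control and 21.5, 16.2 and 20.1 TPM in DP cKO samples 1 to 3. All cKO samples were above all control samples. The difference on the log2 scale was 1.02 (standard error 0.16), with an adjusted p of 0.0624 in edgeR, 0.0125 with the block and 1.51e-05 in DESeq2. Igf1r, a growth factor receptor and Notch target, was at 26.0, 20.6 and 24.3 TPM in control and 15.2, 11.9 and 10.4 TPM in cKO samples 1 to 3. All cKO samples were below all control samples, at -0.89 (standard error 0.14), with an adjusted p of 0.0678 in edgeR, 0.0104 with the block and 2.69e-05 in DESeq2. Maml2, a Mastermind coactivator, had a log2 fold change of -0.60 (standard error 0.18), with an adjusted p of 0.311 in edgeR, 0.0451 with the block and 0.122 in DESeq2. DESeq2 called Jag2, Igf1r and Il2rb (adjusted p = 0.0401 for Il2rb, against 0.289 in edgeR).

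In the remaining lists the gene with the smallest p is given by its value, and none of these genes was called in edgeR. Among the receptor processing genes it was Lfng, a glycosyltransferase that modifies Notch (log2 fold change -1.08, standard error 0.30). Among the turnover genes and inhibitors it was Mib2 (0.25, standard error 0.16), among pre-TCR partners Cd3g (-0.33, standard error 0.10) and among interleukin-2 receptor partners Il2rb, the beta chain (-1.10, standard error 0.32). In the Myc network it was Mxd3 (0.64, standard error 0.26) and among Myc targets the spermidine synthase Srm (0.58, standard error 0.17). The 19 Myc targets had a median log2 fold change of 0.09.

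In CD8 cells 94 of the 102 listed genes were tested with edgeR, 0 were called and 5 (5.32%) had an unadjusted p under 0.05, beside 5.603% of all genes tested, and DESeq2 also called 0. The median log2 fold change was 0.00, against -0.01 for all genes tested. Jag2 had a log2 fold change of 0.41 (standard error 0.21), and its samples overlapped. The smallest p of all belonged to Aph1c, a subunit gene of gamma-secretase (log2 fold change 1.28, standard error 0.38, adjusted p = 0.407). At a mean of 0.992 TPM, on 6 to 28 fragments in each sample, it lay below the 1 TPM that a call needs. In the nuclear complex it was Cir1 (-0.31, standard error 0.14), among turnover genes the ubiquitin ligase Itch (0.18, standard error 0.09) and among other targets Ccnd3 (0.23, standard error 0.10). Among pre-TCR partners it was Cd3g (-0.32, standard error 0.12) and among interleukin-2 receptor partners Stat5b (0.11, standard error 0.07). In the Myc network it was Mxd3 (0.51, standard error 0.29) and among Myc targets Ldha (0.16, standard error 0.13). Without the library labelled cKO replicate 4, which had 28.3 TPM of Mxd3 against 11.2 to 16.6 TPM in the other cKO samples, Mxd3 was at 0.22 (standard error 0.26) and Ldha at 0.08 (standard error 0.12). The values without it were 0.49 for Jag2, 1.24 for Aph1c, -0.25 for Cir1, 0.19 for Itch, 0.23 for Ccnd3, -0.39 for Cd3g and 0.14 for Stat5b, and none was called. The test of a difference between the cKO effects in CD8 and DP cells found 0 of 96 listed genes at an edgeR adjusted p under 0.05, beside 0.107% of 12131 genes, while 10 of the 96 (10.4%) had an unadjusted p under 0.05, beside 5.27% of all genes. The smallest adjusted p was that of Il2rb, 0.249, with a difference of 1.18 (standard error 0.29), and DESeq2 called 1 listed gene, Il2rb (adjusted p = 0.0226), beside 37 of all genes.

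**Figure D4:**
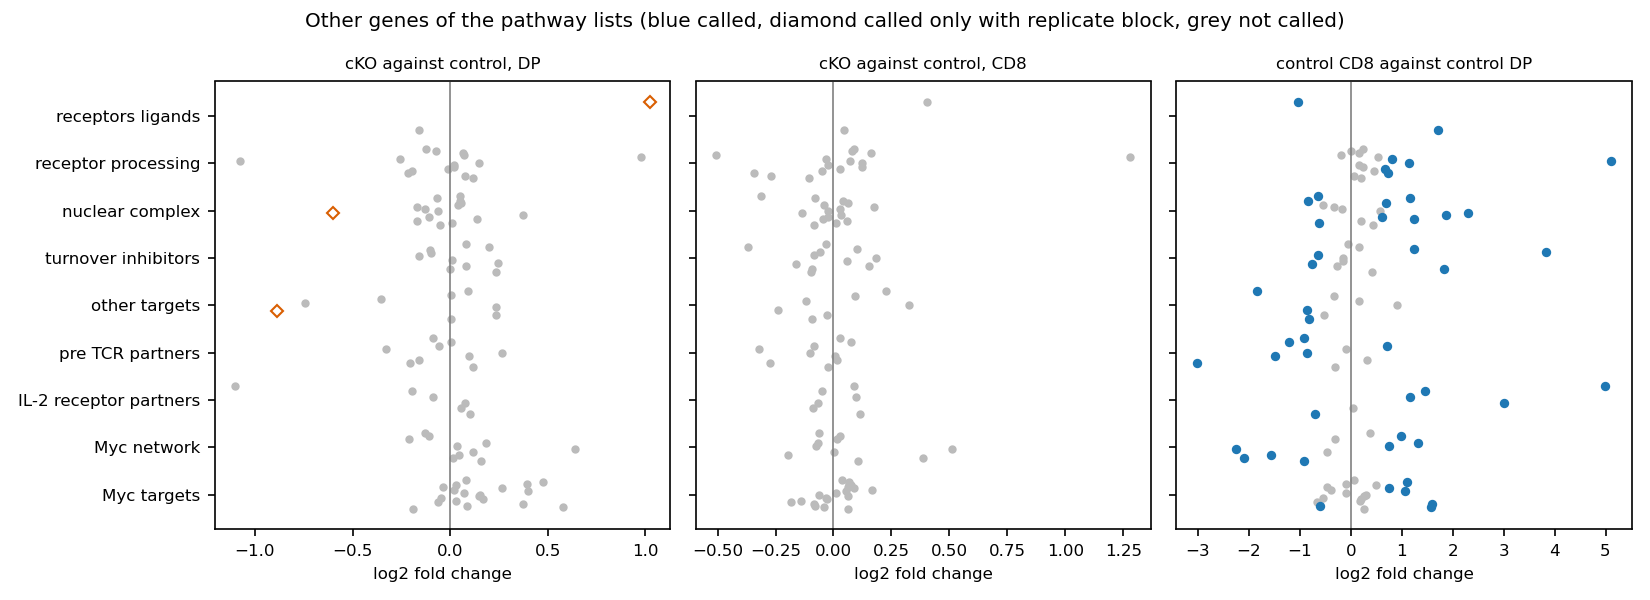
Log2 fold change of each tested gene of the 9 pathway lists, in panels with different horizontal scales for cKO against control in DP, cKO against control in CD8, and control CD8 against control DP. Blue points were called, diamonds were called only with the replicate block and grey points were not called, and 48 points are blue in the right panel and 0 in the others.

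Between control CD8 and control DP cells, 28 of the 94 tested listed genes (29.8%) were called higher and 20 (21.3%) lower. Of all genes that reached 1 TPM 22.8% were called higher and 23.1% lower, and the count of each list is to be read beside these shares. The median log2 fold change was 0.17, against -0.01 for all genes tested. Receptor processing genes were called higher in 5 of 15 cases and lower in 0. Lfng stood at 276 to 444 TPM in CD8 and 6.35 to 14.9 TPM in DP control samples, which was 5.11 on the log2 scale with a standard error of 0.27 (edgeR adjusted p = 3.48e-08). Of the interleukin-2 receptor partners 4 of 6 were called higher and 1 lower. Il2rb, which pairs with the alpha chain that was lower, stood at 462 to 576 TPM against 10.4 to 21.3 TPM (log2 fold change 4.99, standard error 0.24), and the kinase gene Jak3 had a log2 fold change of 2.999 (standard error 0.13).

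The shares of all genes that reached 1 TPM, 22.8% higher and 23.1% lower, also stand beside the counts that follow. In the nuclear complex 6 of 15 were called higher and 3 lower, and the Mastermind genes Maml2 (2.30, standard error 0.13) and Maml3 (1.87, standard error 0.22) were among the largest rises. Notch2, another receptor, was called higher at 1.72 (standard error 0.12), while Jag2 was called lower at -1.05 (standard error 0.20). Of 11 turnover genes and inhibitors 3 were called higher and 2 lower. Dtx4, a relative of Dtx1, was called higher at 3.83 (standard error 0.72), but it passed the filter through its CD8 samples. It was at 0.0856 to 0.497 TPM in DP control samples, on 3 to 19 fragments, and at 1.28 to 7.83 TPM in CD8 control samples, and it was not tested where at least 10 fragments were asked of every sample. Pre-TCR partners were called lower in 5 of 9 cases and higher in 1, with Syk at -3.02 (standard error 0.42) and Lck, whose promoter drives the Cre, at -1.48 (standard error 0.10).

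Of 10 genes tested in the Myc network 3 were called higher and 4 lower, and of the 19 Myc targets 5 were called higher and 1 lower. Beside them stand the same shares of all genes, 22.8% higher and 23.1% lower. Mycn, a relative of Myc and 1 of the 4 called lower, had a log2 fold change of -2.10 (standard error 0.39), but it passed the filter through its DP samples. It rested on 62 to 124 fragments in DP control and 4 to 25 in CD8 control samples, and it was not tested where at least 10 fragments were asked of every sample. For the Max partner genes Mxd3 and Mxi1 the values were -2.25 (standard error 0.25) and -1.56 (standard error 0.13). Among other Notch targets 3 of 7 were called lower and 0 higher, with Ccnd3, a cyclin gene, at -1.83 (standard error 0.11).

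The genes most like each member were found by the Pearson correlation of log2(TMM-normalized CPM + 1), with each cell type centred on its own mean, over 16 samples that share libraries and depth. Against Notch3 the highest values were those of Necab3 (0.940), 4930513N10Rik (0.909) and Prob1 (0.900). For Myc they were Poc1a (0.847), Padi2 (0.823) and Zbtb12 (0.822), and for Notch1 Mgme1 (0.880), Knstrn (0.858) and Emilin1 (0.848). Ptcra was most like Ptpn7 (0.939), Akap1 (0.917) and Hmgb1 (0.891), and Il2ra was most like Crispld2 (0.888), Pdcd1 (0.881) and Nab2 (0.875). Dtx1 was most like Zdhhc18 (0.950), Gars (0.943) and Psma5 (0.938). For the low genes the values were smaller, 0.764 to 0.801 for Hes1 with Ier3ip1, Nuak2 and Pitpna, and 0.768 to 0.797 for Nrarp with Rtraf, Ly6c2 and Paqr4.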

How the data were processed

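The authors filtered reads with fastp (version 0.13.1), aligned them to mm10 with HISAT2 (2.1.0), counted fragments per gene in a strand-specific manner with featureCounts (1.6.1) and deposited raw counts, without normalization and with replicates kept apart. Versions are from the submitters' processing notes. The deposited DP table also gives each gene's position and exonic length, used here for both cell types. All levels, differences and tests were made here from these counts.

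Each comparison was fitted with edgeR (4.0.16, R 4.3.3) by the quasi-likelihood test on its own 2 groups without covariates, with TMM normalization, filterByExpr and Benjamini-Hochberg adjustment over all genes tested. DESeq2 (1.42.0), other normalizations and filters, all 4 groups in a single fit, each sample left out and the replicate number as a block were alternatives. Leaving out the CD8 samples numbered 1 and 2 was an alternative added after seeing the data. The edgeR fits without the block were tested on simulated data.

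In DP cells samples of the same number deviated together from their group means (correlations over genes 0.643, 0.120 and 0.290, all above 0.1), so the numbers, which come from the labels, were taken to pair them. For samples 2 and 3 the largest correlation with another number, 0.324, was higher than that with their own, so the pairing is uncertain. Precision follows the depth, and counts without molecular identifiers are not independent molecules.

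The 8 members and the lists were chosen with earlier results of these data known. Named genes are the members, Tox4, the called listed genes with the 6 largest rises and 6 largest falls per comparison, those called only with the block, the smallest p per list where none was called, and the 3 genes most like each member. Notch2 and Jag2 between cell types, and the genes of other cell types, were named after their values were seen. No 2 libraries of a group were alike within sampling noise.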

Additional observations from a re-analysis of the deposited data

Results flagged for a closer look

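For 23 genes, the 8 members, Tox4 and 14 of the listed genes, each group of 5 CD8 samples was examined for a sample far from the others. Of 46 groups of values 1 was picked out, where chance alone picks out about 1 in 20. Ptcra in CD8 control replicate 2 was at 9.82 TPM, and the nearest of the other 4 control samples was at 2.24 TPM. The same library had the highest Rag1 of the CD8 samples, at 60.1 TPM, and Cd4 at 70.9 TPM. Groups of 3 DP samples were too small to examine in this way.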

How the results depend on the processing

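Against the 17 genes called in DP cells, DESeq2 called 160, no filter on low counts gave 74, all 4 groups in a single fit 42 and the replicate block 131. Leaving out a sample gave 0 to 8, with fewer samples in each fit. Of the listed genes, 0 called in DP cells became 3 with DESeq2, 2 without the filter, 1 with all 4 groups and 3 with the block, and stayed at 0 whichever sample was left out. In CD8 cells 11 genes became 53 with DESeq2, 31 with the replicate block and 5 without the samples numbered 1 and 2, an alternative added after seeing the data. Leaving out a CD8 sample gave 4 to 20, the latter without the library labelled cKO replicate 4, and the listed genes called stayed at 0 under every alternative run. CD8 samples of the same number had correlations of 0.365, 0.299, 0.318, 0.313 and 0.0908, and the last missed 0.1, so they were not taken as paired. With the block, a pairing not taken here, Notch3 in CD8 cells was at 0.41 (standard error 0.12). In the same fit Notch1 was at 0.21 (standard error 0.07), Dtx1 at 0.25 (standard error 0.11) and Il2ra at 0.33 (standard error 0.18). Nrarp was at 0.08 (standard error 0.22) and Myc at -0.11 (standard error 0.10). Of the members 0 were called with the block in CD8 cells. The test of the difference between cell types called 1 listed gene, Il2rb, with the block (adjusted p = 0.0378) and 1 with DESeq2 (0.0226), beside 33 and 37 of all genes tested and 13 without either, and 0 whichever sample was left out. Between control CD8 and DP cells the 5213 genes became 4658 to 6949, and the 48 listed genes 45 to 64. Of 315 recomputed fold changes of members, 3 moved by more than 1 SD of the gene's log2 level between samples of a group, Ptcra (-5.46 and -5.43) and Notch3 (-2.19) between cell types, and 12 changed sign. Where not stated, the cause was not tested. Hes1 rested on 4 to 23 fragments in each sample.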
